A study of Homo sapiens with 6 samples.

Results

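SOCS1 to SOCS7, CISH, PIM1 and PIM2 were followed in K562 cells exposed to calactin. The genes were the 7 numbered suppressors of cytokine signalling, their relative CISH, and both of the PIM kinase genes PIM1 and PIM2. Their members were found by symbol: 27 of the 54613 probe sets tested carried the symbol of 1 of these 10 genes and no other, and 0 carried one together with another symbol. All probe sets of a gene were kept because those of SOCS1 differed from each other in the calactin contrast. That same contrast is described below, so the members' differences are given as a description, with no p-value, and a threshold in the fit over all probe sets is used only to sort them.

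K562 is an established human line from chronic myeloid leukaemia that carries the BCR-ABL1 fusion kinase. Calactin is a cardenolide, a plant steroid of the kind that inhibits the sodium pump. In the calactin group, 3 arrays held RNA of K562 cells treated at a labelled 0.15 mM for 12 h, and the untreated group had 3 arrays of K562 cells given no agent, also at 12 h. Both groups are 1 cell line in the same serum-containing medium, and the labels call the 3 arrays of a group biological replicates without naming separate cultures, so the spread between arrays may be partly technical. The globin genes HBE1 and HBZ, which K562 transcribes, averaged 13170 ± 1120 and 11880 ± 2550 intensity units in calactin arrays and 13550 ± 471 and 11970 ± 2350 in untreated arrays (mean ± SD, n = 3 each). Of 8 K562 marker genes measured, some erythroid and others the partner genes of the BCR-ABL1 fusion, 5 were not called. On the log2 scale used below, TAL1 rose by 0.92 ± 0.10, TFRC fell by 0.55 ± 0.07 and GATA1 fell by 0.86 ± 0.18. Of markers of other cell types, 1 of 3 for T cells and 1 of 3 for fibroblasts fell and none of 2 for B cells or 3 for monocytes was called, and their part in the results below was not tested. Labelling took 8 ug of total RNA, so the intensities of these bulk samples give neither cell number nor RNA per cell.

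SOCS proteins are feedback brakes. A cytokine receptor activates JAK kinases, these phosphorylate STAT factors, and the STAT factors switch on SOCS genes, whose products bind phosphorylated receptors or kinases through an SH2 domain. Their SOCS box recruits elongins and cullin 5, so the bound protein is marked with ubiquitin, and SOCS1 and SOCS3 also block the kinase directly. PIM1 and PIM2 are serine/threonine kinases that favour survival and growth, have no known regulatory domain, and are active in proportion to their amount. In BCR-ABL1 leukaemia cells STAT5 is kept active, and CISH, SOCS2 and PIM1 are among its known target genes.

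Intensities were used on their deposited scale and compared as log2(intensity + 16). A difference is calactin minus untreated on that log2 scale with its standard error from limma. A probe set counted as past the threshold at an adjusted p under 0.05 over all 54613 probe sets. Of these, 13.9% were past it, 3.68% higher with calactin and 10.3% lower. The lower calls were 73.6% of all calls as deposited, 54.7% under quantile normalization and 11.6% when arrays were scaled on their poly-A spike-ins and paired by replicate number (called the poly-A scaling below). Median intensity was 31.17 to 32.06 in calactin arrays and 33.12 to 34.41 in untreated arrays. The median difference of all probe sets was -0.05, and it was 0.25 under the poly-A scaling.

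Among the 27 member probe sets, 6 were past the threshold and higher, 1 was past it and lower, and 20 were not past it. The 6 belonged to SOCS1, SOCS2 and CISH, 2 from each, and the 1 to SOCS6. The median difference was 0.10 over the 27 and -0.05 over all probe sets. All 3 calactin arrays lay above all 3 untreated arrays in 10 member probe sets, where 9.36% of all probe sets did, and below them in 3, where 19.0% of all did. Because the group was chosen on this contrast, nothing is read from these shares. The members' counts moved with the setting, to 17 higher and 0 lower under the poly-A scaling. Under that scaling 19.4% of all probe sets were higher and 2.53% lower.

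**Figure D1:**
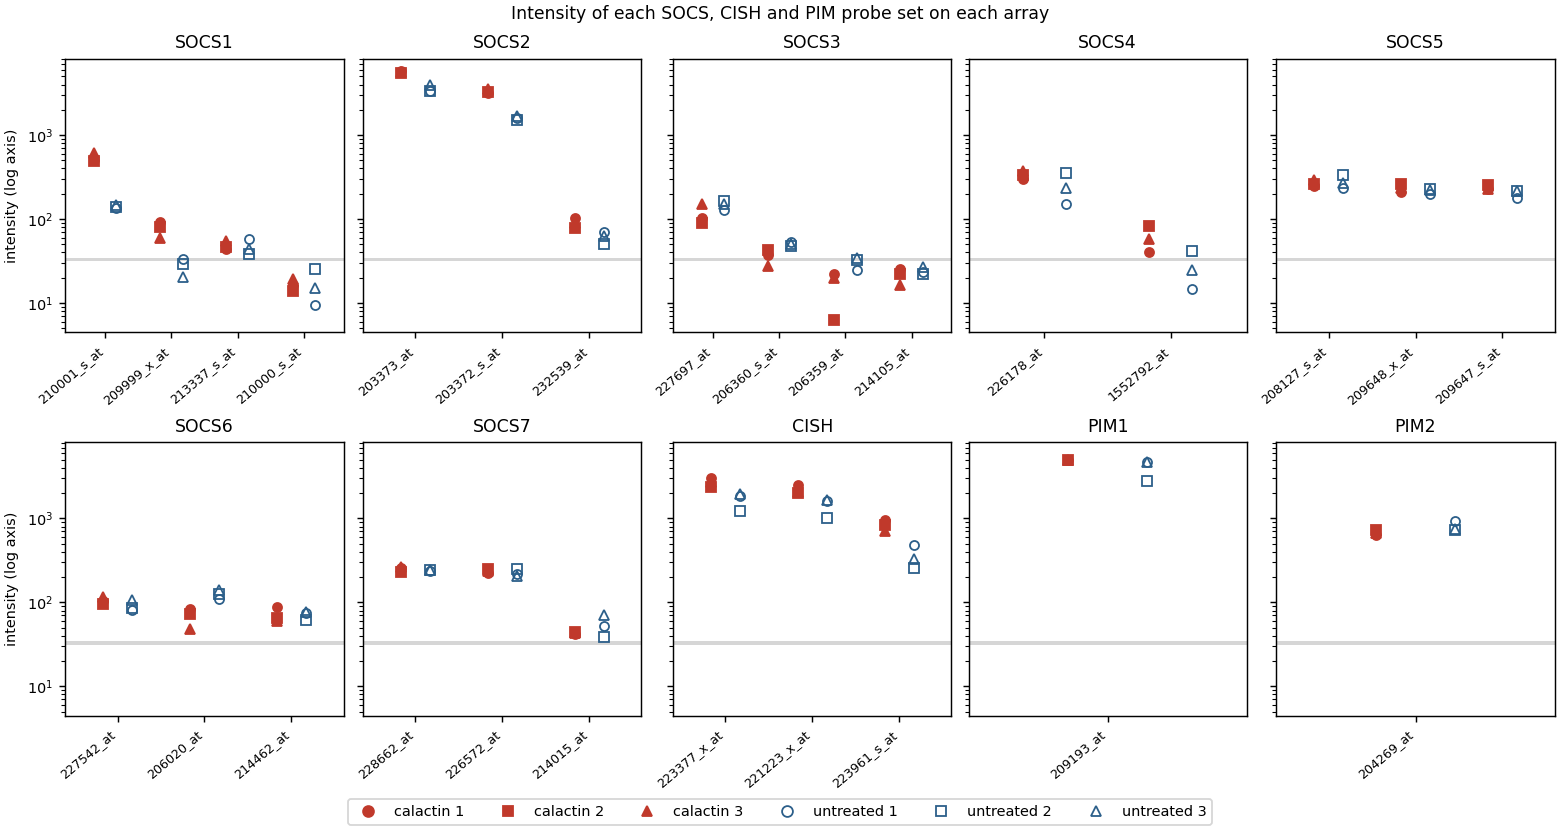
Intensity of each probe set (log axis) in the 3 calactin arrays, filled red, and the 3 untreated arrays, open blue, with 1 panel for each gene and the symbol shape giving the replicate number. The grey band spans the medians of the 6 arrays, from 31.17 to 34.41, and the filled symbols of SOCS1 210001_s_at (489.5 to 614.2) stand clear of the open ones (136.6 to 148.0) while those of 213337_s_at and 210000_s_at mix.

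CISH binds activated receptors, among them the erythropoietin receptor, and is a classical STAT5 target. The bases before its start are printed because they hold repeated STAT sites, with the matches in capitals. They and the SOCS1 bases below come from RefSeq on GRCh38.p14, 5′ to 3′ on the gene's strand, ending at the base before the start.
CISH promoter, chr3:50611775-50612024, minus strand: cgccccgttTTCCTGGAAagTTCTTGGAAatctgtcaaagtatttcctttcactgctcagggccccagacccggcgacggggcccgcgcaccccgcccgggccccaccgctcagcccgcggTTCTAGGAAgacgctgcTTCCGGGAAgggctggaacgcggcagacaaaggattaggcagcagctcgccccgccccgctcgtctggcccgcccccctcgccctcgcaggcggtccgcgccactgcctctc
The motif searched was TTCNNNGAA, the palindromic site of a STAT dimer, read on both strands. It occurred 4 times, at -241 to -233, -230 to -222, -129 to -121 and -112 to -104 from the start, and none of these overlapped a match of the other motifs searched. Windows of 250 bases before to 50 after the start held at least 1 match in 7.66% of 35116 promoters and at least 4 in 7 of them. A match is a run of letters, and binding was not measured here.

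On 223961_s_at, CISH had intensities of 952.2, 842.7 and 708.5 in calactin arrays 1, 2 and 3, against 476.2, 257.9 and 324.3 in untreated arrays. The groups did not overlap, and the difference was 1.24 ± 0.21, or 2.36-fold, past the threshold. On 223377_x_at the values were 2999, 2390.1 and 2688 with calactin, against 1862, 1219.8 and 1972 in untreated arrays. The groups were again apart, with untreated replicate 2 the lowest array, and the difference of 0.70 ± 0.17 was past the threshold. The call of 223377_x_at was lost without calactin replicate 1 (0.62), 2 (0.78) or 3 (0.69) and without untreated replicate 1 (0.78), while without untreated replicate 2 the call stayed at 0.48. On 221223_x_at the values were 2494, 1988 and 2088 with calactin, against 1616, 1023 and 1655 in untreated arrays, with no overlap. The difference there, 0.63 ± 0.18, was not past the threshold, and it was past it with the replicate number as a block. Every CISH probe set therefore had its 3 calactin arrays above its 3 untreated arrays. The suffix _x_at marks probes that may also bind other sequences, and _s_at marks probes shared by several transcripts. Every CISH and every SOCS1 probe set carries such a suffix, so neither gene had a probe set of unshared sequence.

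SOCS2, best known as the brake on growth hormone signalling, had 3 probe sets. On 203372_s_at SOCS2 gave 3138, 3236 and 3508 in calactin arrays, against 1615, 1513 and 1703 in untreated arrays. Each calactin array was above every untreated one, and the difference was 1.03 ± 0.08, or 2.04-fold. On 203373_at the values were 5718, 5439.5 and 5708 with calactin, against 3372, 3322 and 3983 in untreated arrays. The groups did not overlap, and the difference was 0.66 ± 0.08. Both were past the threshold, and the call of 203373_at was lost when hybridisation spikes set the scale and the replicate block was added. The third probe set, 232539_at, gave 104.2, 79.06 and 90.46 with calactin, against 70.75, 51.04 and 62.60 in untreated arrays. Its groups were apart as well, with a difference of 0.47 ± 0.17 that was not past the threshold. By replicate number, the differences of 203372_s_at were 0.95, 1.09 and 1.04, those of 203373_at 0.76, 0.71 and 0.52, and those of 232539_at 0.47, 0.50 and 0.44.

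SOCS1 inhibits JAK kinases directly and is induced by interferons. Its upstream bases are shown because they hold an IRF element, the site of interferon regulatory factors, here in capitals.
SOCS1 promoter, chr16:11256205-11256454, minus strand: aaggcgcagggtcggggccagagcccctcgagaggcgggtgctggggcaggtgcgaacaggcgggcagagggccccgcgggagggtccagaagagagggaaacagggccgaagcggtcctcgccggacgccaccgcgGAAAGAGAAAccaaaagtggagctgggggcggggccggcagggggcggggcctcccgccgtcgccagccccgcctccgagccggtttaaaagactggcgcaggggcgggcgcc
The element searched was GAAANNGAAA on both strands. It lay at -113 to -104 from the start, overlapped no other motif searched, and occurred in 3.57% of the 35116 promoters. TTCNNNGAA was not in this window.

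The 4 probe sets of SOCS1 did not agree. On 210001_s_at, SOCS1 had 510.0, 489.5 and 614.2 in calactin arrays, against 136.6, 138.6 and 148.0 in untreated arrays. The lowest calactin array was far above the highest untreated one, and the difference was 1.81 ± 0.12, or 3.51-fold. On 209999_x_at the values were 91.54, 79.48 and 58.84 with calactin, against 33.38, 28.86 and 20.22 in untreated arrays. The groups did not overlap, untreated arrays 2 and 3 lay below their array medians, and the difference was 1.09 ± 0.21. On 213337_s_at the values were 43.79, 46.62 and 55.19 with calactin, against 57.76, 37.86 and 44.20 in untreated arrays. Those groups overlapped, with a difference of 0.05 ± 0.19, and all 6 values lay above but near their array medians. On 210000_s_at the values were 16.32, 13.91 and 19.39 with calactin, against 9.47, 25.55 and 15.17 in untreated arrays. All 6 lay below their array medians and the difference was 0.02 ± 0.21. With the mean of the 4 probe sets, the difference of SOCS1 was 0.74, against 1.81 on its brightest probe set.

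SOCS3, the brake on signalling through the gp130 receptor, had 4 probe sets. On 227697_at SOCS3 gave 102.9, 89.97 and 150.8 in calactin arrays, against 127.5, 165.5 and 150.0 in untreated arrays. The groups overlapped, and the difference was -0.35 ± 0.19. On 206360_s_at the values were 37.66, 42.47 and 27.80 with calactin, against 52.65, 48.17 and 50.27 in untreated arrays. All calactin values were the lower ones there, with a difference of -0.36 ± 0.18. The calactin values on 206359_at, 6.31 to 22.36, also lay below the untreated ones, 24.95 to 34.57, and calactin replicate 2 was the lowest array. On 214105_at the difference was -0.10 ± 0.18, and all 6 values lay below their array medians. None of the 4 SOCS3 probe sets was past the threshold, and the differences of 227697_at and 214105_at were positive, at 0.17 and 0.10, under the poly-A scaling.

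SOCS4 to SOCS7 have longer amino-terminal regions, and SOCS4 and SOCS5 are known as brakes on the epidermal growth factor receptor. On 226178_at, SOCS4 gave 302.4, 338.2 and 369.9 in calactin arrays, against 152.8, 354.2 and 236.3 in untreated arrays. The groups overlapped through untreated replicate 2, and the difference was 0.49 ± 0.25. It was not past the threshold, and it was 0.77 and past it without untreated replicate 2 but 0.20 and not past it without untreated replicate 1. On 1552792_at, SOCS4 gave 40.92, 82.96 and 57.86 with calactin, against 14.49, 41.63 and 24.81 in untreated arrays. Replicate 2 was the highest array of each group, and untreated arrays 1 and 3 lay below their array medians. The differences by replicate number were 0.90, 0.78 and 0.86, and the difference of 0.85 ± 0.29 was past the threshold only with the replicate block, robust estimation, probe sets above the median signal alone or the poly-A scaling.

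SOCS5 had 3 probe sets with calactin means of 268.7, 234.6 and 235.7, against untreated means of 280.7, 216.8 and 203.4. Their differences ran from -0.05 to 0.20, and only 209647_s_at had its calactin arrays, at 224.9 to 253.1, above its untreated arrays, at 177.4 to 218.1. SOCS7, which binds signalling adaptors, had differences of 0.04 ± 0.10, 0.08 ± 0.12 and -0.21 ± 0.20 on its 3 probe sets, and the groups overlapped on each. None of the SOCS5 and SOCS7 probe sets was past the threshold. Under the poly-A scaling 3 of SOCS5 and 2 of SOCS7 were past it and higher, where 19.4% of all probe sets were.

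SOCS6, which is known to bind the receptor KIT, had the 1 member probe set past the threshold and lower. On 206020_at it gave 83.38, 72.11 and 48.40 in calactin arrays, against 109.4, 124.4 and 141.7 in untreated arrays. The groups did not overlap, and the difference was -0.77 ± 0.19. That call did not survive leaving out calactin replicate 2 (-0.81), calactin replicate 3 (-0.59), or any 1 untreated array (-0.85, -0.77 and -0.68 without numbers 1, 2 and 3), nor quantile normalization (-0.62). The other SOCS6 probe sets overlapped between the groups. Their differences were 0.17 ± 0.15 on 227542_at, the brightest, and 0.00 ± 0.18 on 214462_at.

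**Figure D2:**
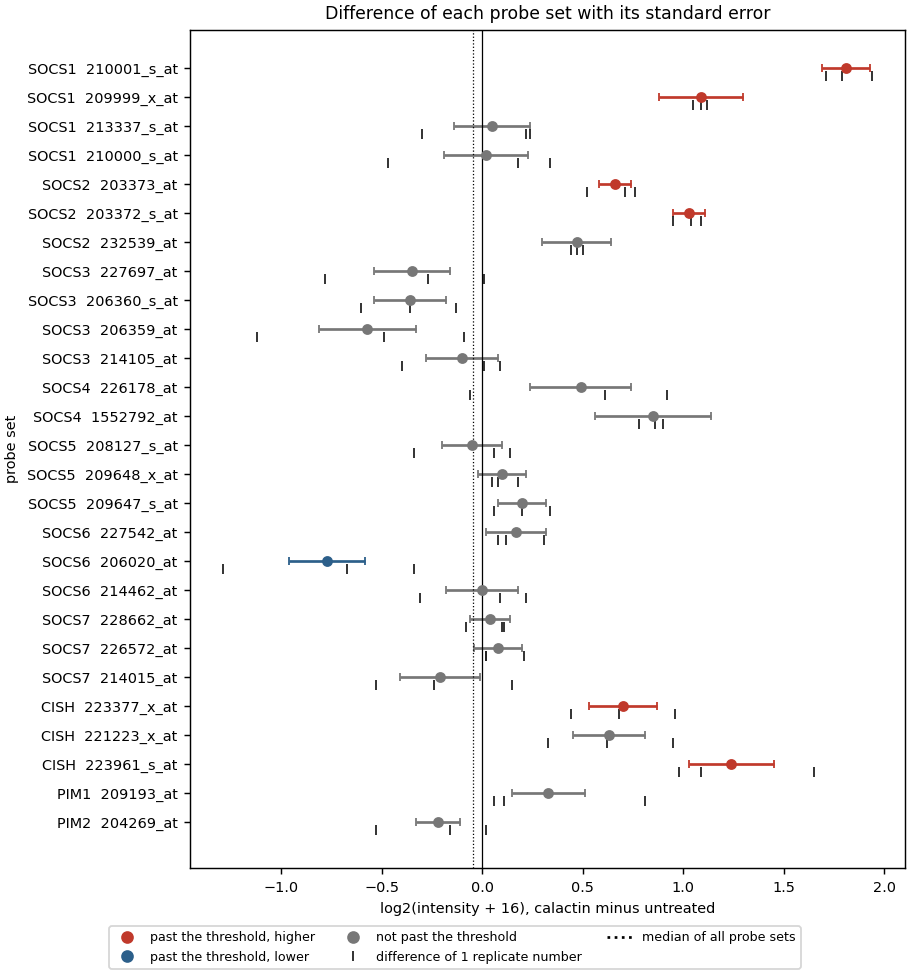
Difference in log2(intensity + 16), calactin minus untreated, of the 27 probe sets, with points and bars for the estimate ± SE and ticks for the difference of each replicate number. SOCS1 210001_s_at stands at 1.81, the other SOCS1 probe sets between 0.02 and 1.09, and SOCS6 206020_at at -0.77 while its other probe sets are at 0.17 and 0.00.

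PIM1 and PIM2, which phosphorylate regulators of the cell cycle, translation and cell death, had 1 probe set each. PIM1 gave 4940.3, 4908 and 5025 in calactin arrays, against 4749, 2798 and 4644 in untreated arrays. The 3 calactin arrays were above the 3 untreated ones, but only untreated replicate 2 stood far below. The difference was 0.33 ± 0.18, not past the threshold, and 0.08 without untreated replicate 2. PIM2 gave 637.3, 732.9 and 668.3 in calactin arrays, against 928.7, 721.8 and 748.2 in untreated arrays. Those groups overlapped, with a difference of -0.22 ± 0.11, which was not past the threshold and was 0.33 under the poly-A scaling.

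Untreated replicate 2 was the lowest of the 3 untreated arrays on all 3 CISH probe sets and on PIM1. Its deviations from the untreated mean were -0.43, -0.45 and -0.39 for CISH 223377_x_at, 221223_x_at and 223961_s_at, and -0.50 for PIM1. On both SOCS4 probe sets the same array was the highest, at 0.56 and 0.47. SOCS2 203372_s_at and SOCS1 210001_s_at varied less among untreated arrays, with deviations of -0.09 to 0.08 and -0.04 to 0.06. Levels of different probe sets are not comparable on these arrays, so the genes are not ranked by level.

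**Figure D3:**
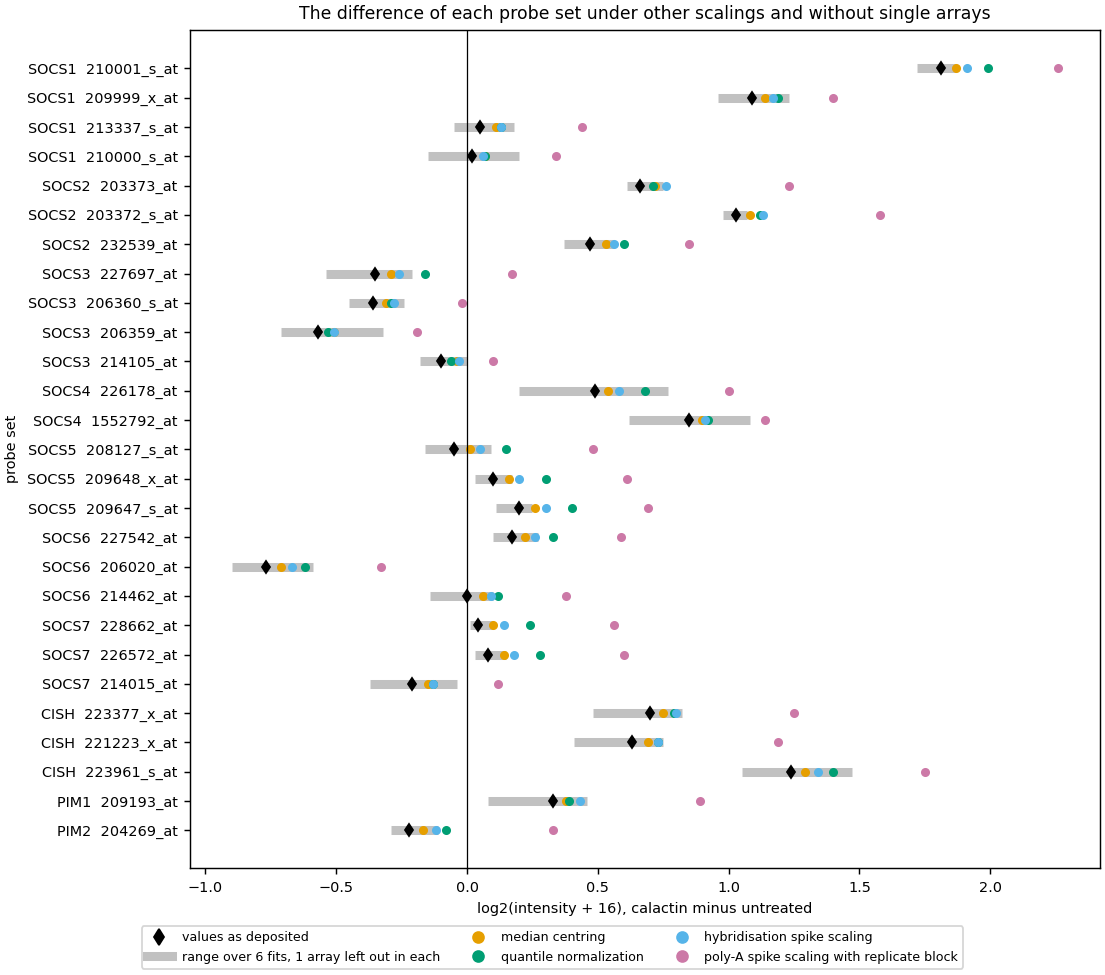
Difference of each probe set in log2(intensity + 16), calactin minus untreated, as deposited (diamonds), under 4 other scalings (coloured points) and over the 6 fits that each leave out 1 array (grey bars). SOCS1 210001_s_at, both brighter SOCS2 probe sets and the 3 CISH probe sets stay above 0 throughout, and SOCS6 206020_at stays below 0, whereas SOCS3 227697_at and PIM2 cross 0 under the poly-A scaling.

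Genes whose values followed a member most closely over the 6 arrays were taken from 12538 other genes above the median signal, by Pearson's r. For SOCS1 210001_s_at these were FOXJ2, CLK1 and INTS6, each at 0.997. For SOCS2 203373_at they were TGFBR3 at 0.996, ZBTB11 at 0.996 and TMCO1 at 0.995. For CISH 223377_x_at they were PRPF38B at 0.993, BAZ1B at 0.991 and PIP at 0.989, and for PIM1 CPVL-AS2 at 0.998, HLMR1 at 0.994 and HTR4 at 0.987. Over 0.95 there were 364 genes for SOCS1, 294 for SOCS2, 72 for CISH, 38 for PIM1 and 5 for PIM2. The likest gene was RBIS for SOCS3 (0.995), SLC35A5 for SOCS4 (0.990), LINC01215 for SOCS5 (0.989), TEX35 for SOCS6 (0.987), KLHDC7A for SOCS7 (0.979) and WNT10B for PIM2 (0.985). These are descriptions over 6 arrays that share the calactin difference and the array's overall signal. The genes named are the highest of 12538 values of r for each member. How many genes would pass 0.95 without any relation to a member was not tested.

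Transcripts of the signalling chain that acts on these genes were read from lists chosen by function, each gene by its brightest probe set. Phosphorylation and activity of the proteins were not measured. Of all 19775 genes so read, 19.6% were past the threshold, 4.41% higher and 15.2% lower. All calactin arrays lay above all untreated ones in 10.3% and below them in 24.5%. Under the poly-A scaling 4977 of these genes were higher and 836 lower. With the replicate block 1277 were higher and 3771 lower, and under quantile normalization 1501 were higher and 2254 lower. The list counts below moved alongside these counts over all genes. Read this way, 3 of the 10 SOCS, CISH and PIM genes were past the threshold and higher and 0 lower, with 4 above without overlap and 0 below. Of 9 JAK kinases and STAT factors measured, 4 fell, 0 rose and 5 were not called, and 6 fell with the replicate block, while under the poly-A scaling 4 fell and 1 rose. The list's median was -0.37 against -0.06 for all genes, and it was 0.17 against 0.30 under the poly-A scaling. STAT5A, the factor behind many of these feedback genes, gave 1091, 810.0 and 1053 in calactin arrays, against 2798, 1859 and 2791 in untreated arrays. The groups did not overlap, and STAT5A fell by 1.31 ± 0.18 (limma, adjusted p = 0.00171), also negative in every alternative. STAT5B was at -0.21 ± 0.06 and was not called (limma, adjusted p = 0.0723), whereas with the replicate block it was (limma, adjusted p = 0.0362). Its difference was 0.02 with the mean of its 5 probe sets and 0.36 under the poly-A scaling, and neither was called. STAT6 fell by 1.33 ± 0.13, JAK1 by 1.08 ± 0.11 and STAT3 by 0.94 ± 0.07, with lower values in all 3 calactin arrays of each. Under the poly-A scaling STAT5A was at -0.74, STAT6 at -0.76, JAK1 at -0.51 and STAT3 at -0.37. With the mean of its probe sets JAK1 was at -0.55 and STAT6 at -0.88, and the STAT3 call was lost when hybridisation spikes set the scale and the block was added (-0.84).

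Of 11 other known STAT5 target genes, 1 rose, 4 fell and 6 were not called (3 rose and 2 fell under the poly-A scaling), with a median of -0.11 against -0.06 for all genes and 0.26 against 0.30 under the poly-A scaling. BCL6, a transcriptional repressor, gave 304.4, 340.5 and 328.2 in calactin arrays, against 134.7, 183.7 and 138.7 in untreated arrays, and rose by 1.03 ± 0.14 (limma, adjusted p = 0.00168). ID1, an inhibitor of helix-loop-helix factors, gave 567.1, 858.5 and 719.0 with calactin, against 3775, 2251 and 3912 in untreated arrays, and fell by 2.16 ± 0.22 (limma, adjusted p = 5.16e-04). CCND1, which encodes cyclin D1, gave 10.18, 4.09 and 4.25 with calactin, below the array medians, against 103.3, 99.73 and 96.58 in untreated arrays. CCND1 fell with calactin under every alternative, but the size depended on the added constant. The difference was -2.40 as reported, -3.91 with a constant of 1 and -1.22 with 64. With the mean of its 2 probe sets, of which 1 was past the threshold, CCND1 was at -1.58. MCL1, a survival gene, fell by 0.66 ± 0.10, a call lost under both spike scalings. Only 2 of the 6 MCL1 probe sets were past the threshold, and MCL1 was at -0.47 with the mean of its probe sets. BCL6 kept a positive and ID1 and CCND1 a negative difference in every alternative. The list was not sorted by whether STAT5 raises or lowers a gene. Its counts and median therefore give no direction of STAT5 action.

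Among 8 partners that build the ubiquitin ligase of the SOCS box, CUL5, the cullin itself, rose by 0.32 ± 0.09, RNF7, its RING partner, fell by 0.43 ± 0.08 and 6 were not called. Under the poly-A scaling 6 of the 8 rose and 0 fell. The CUL5 call was lost without any 1 of the 6 arrays (0.24 to 0.36), and RNF7 was at 0.14 under the poly-A scaling. Of 17 other SOCS box genes, 3 fell and 0 rose, 6 fell with the replicate block, and 4 rose and 1 fell under the poly-A scaling. ASB13, RAB40C and SPSB3 fell by 1.41 ± 0.10, 0.63 ± 0.13 and 0.37 ± 0.10. The call of SPSB3 was lost without any calactin array (-0.40, -0.39 and -0.33), untreated replicate 1 (-0.35) or 3 (-0.33), and it was 0.16 under the poly-A scaling. RAB40C lost its call with the mean of its probe sets (-0.09), under the poly-A scaling (-0.07), under hybridisation spike scaling with and without the block, and without untreated replicate 3 (-0.59).

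Of 12 other brakes on the pathway, 0 rose and 1 fell, the phosphatase gene PTPRC, by 0.97 ± 0.10. With the replicate block 1 rose and 2 fell, under quantile normalization 3 rose and 1 fell, and under the poly-A scaling 6 rose and 1 fell. PTPRC was at -0.40 under the poly-A scaling and at -0.46 with the mean of its probe sets. Of 17 cytokine and growth factor receptors, 1 rose and 2 fell, 5 fell with the replicate block, and 4 rose and 0 fell under the poly-A scaling. IL6ST, which encodes gp130, rose by 0.99 ± 0.19, a call lost without calactin replicate 2 (0.94) or untreated replicate 3 (0.90). Only 2 of the 7 IL6ST probe sets were past the threshold, and IL6ST was at 0.46 with the mean of its probe sets. IFNGR2, of the interferon gamma receptor, fell by 0.63 ± 0.08. KIT fell by 0.86 ± 0.19, and leaving out calactin replicate 1 (-0.73), calactin replicate 3 (-0.79) or any 1 untreated array (-0.87 to -0.85) ended its call. The calls of IFNGR2 and KIT were lost under both spike scalings.

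PIM3, the relative of PIM1 and PIM2, was read with 12 known substrates of the PIM kinases. Of these 13 genes, 4 rose and 2 fell, 4 fell with the replicate block, and 6 rose and 1 fell under the poly-A scaling. PIM3 gave 1914, 1729 and 1639 in calactin arrays, against 1320.4, 1103 and 1299 in untreated arrays. Its groups did not overlap, and PIM3 rose by 0.50 ± 0.10 (limma, adjusted p = 0.00982), a call lost under hybridisation spike scaling. CDKN1B, the cyclin kinase inhibitor p27, rose by 1.17 ± 0.11 and CDC25A, a cell cycle phosphatase, by 0.97 ± 0.12. MAP3K5, the stress kinase ASK1, fell by 1.22 ± 0.11. CDKN1B, CDC25A and MAP3K5 kept their calls in all 20 alternatives.

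**Figure D4:**
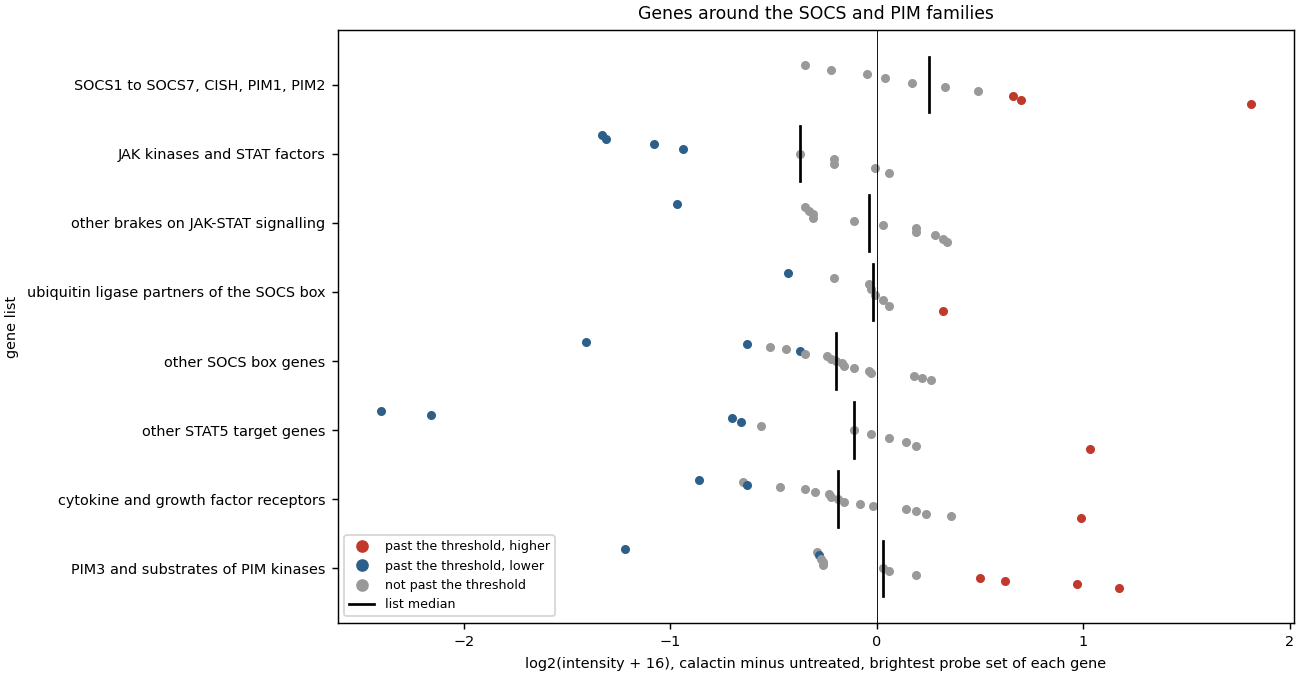
Difference in log2(intensity + 16), calactin minus untreated, of the brightest probe set of each gene, with 1 row for the 10 SOCS, CISH and PIM genes and 1 for each list described, the black bar marking the row's median. Points past the threshold are red (higher) or blue (lower), and the row of JAK kinases and STAT factors holds 4 blue and 0 red points.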

How the data were processed

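Total RNA of K562 cells was extracted with Trizol and 8 ug of it labelled with biotin for 1-colour Affymetrix arrays, per the labels' protocols. The deposited table holds a linear intensity for each probe set on each array. How the authors summarised, background-corrected and scaled it is not given in the sources used here. Precision is limited by how few arrays there are. Of 54675 probe sets, 62 array controls were left out. A platform annotation gave 1 symbol to 41091, several to 1801 and none to 11721. Symbols checked through the gene identifier changed in 0 cases.

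Each intensity from the deposited table was turned into log2(intensity + 16), with no further normalization. With limma 3.58.1 under R 4.3.3, a linear model and trended eBayes set the 3 calactin arrays against the 3 untreated ones over 54613 probe sets, two-sided, with Benjamini-Hochberg adjustment and a threshold of 0.05. The same steps were run on simulated data whose noise was independent between arrays. That run cannot check the fit on arrays that vary together by replicate number, as described below. Lists used each gene's probe set of the highest mean, and 4 list genes lacked a single-symbol probe set and were not analysed here. Named were all member probe sets, up to 4 genes a pathway list with the smallest p, and the 3 likest genes a member; STAT5B, HBE1, HBZ, TAL1, TFRC and GATA1 were named after their values were seen. Promoters were matched by symbol for 7 of 10 members. Members and lists were chosen with earlier results of these data known. Of the 8 lists, 1 is not reported here, and counts over all list genes include it.

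Replicate numbers come from the titles. Over 27305 probe sets above the median signal, deviations of same-numbered arrays from their group means correlated at 0.415, 0.325 and 0.240. Arrays of unlike numbers correlated at -0.337 to -0.01, so the numbers were taken to pair the arrays. The main fit left this pairing out, so its standard errors and calls are those of unpaired groups. The pairing enters only where the replicate block is named. Alternatives were other scalings, pseudocounts, filters, units of testing, variance models, the replicate block and leaving out each array. Plots were drawn with matplotlib 3.10.9.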

Additional observations from a re-analysis of the deposited data

How the results depend on the processing

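The replicate block gave 2864 higher and 7044 lower probe sets, 8 and 1 among the members and 8 and 31 among the list genes, against 2011 and 5600, 6 and 1, and 7 and 18 as reported. It added the calls of SOCS4 1552792_at and CISH 221223_x_at. SOCS1 210001_s_at and 209999_x_at, SOCS2 203372_s_at and CISH 223961_s_at kept their direction and their call in every alternative that held them. Quantile normalization gave 3382 higher probe sets, 0 lower members and 11 higher list genes. Hybridisation spike scaling gave 1123 higher and 2307 lower probe sets, 0 lower members, and 4 higher and 9 lower list genes. With the replicate block, a setting chosen after seeing the data, it gave 1062 and 2160, 0 lower members, and 4 and 8 list genes. Poly-A spike scaling with the block gave 10582 higher and 1384 lower probe sets, 17 and 0 members, and 32 and 9 list genes. The spike scale factors were 0.156 and 0.211 in the calactin and untreated arrays numbered 3 and 1.66 to 3.55 in the others. There SOCS5 208127_s_at, at -0.05 as reported, was at 0.48 and past the threshold. Probe sets of unshared sequence left 15 members, none of them of SOCS1 or CISH. They gave 1119 higher and 3235 lower probe sets, 1 higher member and 9 lower list genes. With 1 probe set a gene there were 984 and 3285 calls, and 3 and 0 among the 10 member genes. Averaging the probe sets of each gene gave 797 and 2856, and 3 and 0. Those 3 settings test fewer features; the cause of the other changes was not tested. Leaving out 1 array gave 1222 to 1949 higher and 3640 to 4832 lower probe sets, 5 to 7 higher and 0 to 1 lower members, and 4 to 6 higher and 12 to 17 lower list genes. The fewest were without calactin replicate 2 (1222 higher) and untreated replicate 3 (3640 lower). Signal near or below the array medians limits SOCS1 209999_x_at and 210000_s_at, SOCS3 206360_s_at, 206359_at and 214105_at, and SOCS4 1552792_at. Values of SOCS1 213337_s_at (37.86 to 57.76) and SOCS7 214015_at (38.66 to 69.86) were above the medians of 31.17 to 34.41 but near them.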
